A study of Arabidopsis thaliana with 5 samples.

Results

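The genes described here are the 3 cytokinin receptors AHK2, AHK3 and AHK4 and the 4 type-B response regulators ARR1, ARR2, ARR10 and ARR12 of Arabidopsis thaliana, 7 of the 33602 loci measured. They were chosen by locus, and all 7 were measured in every library. RNA came from nuclei sorted from root tips of 0.5 cm, cut from seedlings grown for 5 days on half-strength MS agar, with 120000 GFP-positive nuclei per library. Both groups carried the same reporter, a GUS-GFP fusion under the SMR1 promoter, so only nuclei in which that promoter was active were collected. The groups were wild-type Col-0 (2 libraries, replicates 2 and 4) and the smr1 mutant (3 libraries, replicates 1, 2 and 4), at the same age and with no treatment named in the labels. SMR1 encodes an inhibitor of cyclin-dependent kinases that promotes endoreplication. The sources used here give neither the mutant allele nor the number of independent reporter lines. The series' design text calls the libraries biological replicates. Values below stand in a fixed order, replicates 2 and 4 for Col-0 (called wild type) and replicates 1, 2 and 4 for smr1 (called mutant).

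Cytokinin is perceived by histidine kinases in the membranes of plant cells. AHK2, AHK3 and AHK4 bind the hormone and pass a phosphoryl group to histidine phosphotransfer proteins (AHPs), which carry it to response regulators. The type-B regulators are DNA-binding transcription factors that switch on cytokinin target genes, among them the type-A regulators, which dampen the response. In the root tip, AHK3 with ARR1 and ARR12 sets where cells leave division and start to elongate and endoreplicate, and AHK4, also called CRE1 or WOODEN LEG, is needed for cell divisions of the vascular bundle. The comparison asks whether mutation of the inhibitor goes with other transcript levels of these genes in root nuclei where its promoter is active.

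The members lie on 5 chromosomes of the RefSeq annotation of TAIR10.1. AHK2 (AT5G35750) is at chr5:13911283-13916805 on the minus strand, AHK3 (AT1G27320) at chr1:9486889-9492632 on the plus strand and AHK4 (AT2G01830) at chr2:362983-369707 on the minus strand. ARR1 (AT3G16857) is at chr3:5755714-5759443 and ARR2 (AT4G16110) at chr4:9112686-9116164, both on the plus strand. ARR10 (AT4G31920) is at chr4:15444053-15447042 and ARR12 (AT2G25180) at chr2:10724301-10727272, both on the minus strand. ARR1 is the only member whose span overlaps another annotated gene. AT3G16860 shares its last 69 bases, which lie beyond the coding sequence of ARR1.

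Most members had a single transcript model in the deposited tables, while AHK4 had 3 and ARR1 had 2. The sequences below show the only places where the coding sequences of these models differ, since the split of reads between the models is described further on. All models of both genes had the length of a RefSeq coding sequence. AHK4 models 1 and 3 have the same coding length of 3174 bases, for which RefSeq holds a single coding sequence of this gene. Model 2, with 3243 bases, begins 69 bases (23 codons) further upstream, in a coding exon at chr2:367955-368016. In the stretch printed, this exon is joined to chr2:367427-367436. Whether models 1 and 3 carry it outside their coding sequence was not checked. Capitals mark the start codon of model 2 and the start codon of models 1 and 3. In ARR1, model 2 splices from chr3:5758830-5758847 to a last coding exon at chr3:5759071-5759139, while model 1 reads on through the splice site to an early stop, at chr3:5758830-5758853. Capitals mark the 63 bases that model 2 has in addition. The last 6 letters are the same in both models, though they come from chr3:5759134-5759139 in model 2 and from chr3:5758848-5758853 in model 1. All are coding sequence read 5′ to 3′ on the strand of the gene, from the RefSeq TAIR10.1 genome.
AHK4 model 2 start: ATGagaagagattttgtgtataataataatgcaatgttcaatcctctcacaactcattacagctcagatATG
ARR1 model 2 end: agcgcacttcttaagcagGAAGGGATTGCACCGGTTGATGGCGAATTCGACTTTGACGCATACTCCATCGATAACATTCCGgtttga
ARR1 model 1 end: agcgcacttcttaagcaggtttga

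Libraries held between 24918795 and 26823753 reads. SMR1 itself was at 10.97 and 21.6 CPM (counts scaled by library size and TMM factors) in wild type, against 6.02, 4.70 and 7.06 CPM in the mutant, so every library labelled smr1 lay below both Col-0 libraries. After adjustment over all genes this was not a call (edgeR adjusted p = 0.725). Markers listed for root cell types had reads in every library. The summed level of 4 epidermis markers ran from 233 to 249 CPM in wild type and from 274 to 296 CPM in the mutant. Most of this sum was GL2, at 166 and 184 CPM in wild type, against 214, 200 and 220 CPM in the mutant. WER also lay higher in every mutant library, while CPC and COBL9 overlapped between the genotypes. The sum of 4 stele markers ran from 105 to 123 CPM in wild type and from 108 to 129 CPM in the mutant. Sums of the stem cell niche, endodermis and root cap markers overlapped between the genotypes, as did each endodermis marker. In the niche, PLT1 was at 1.07 and 0.94 CPM in wild type, against 1.56, 2.33 and 1.51 CPM in the mutant. PLT2 of the niche and BRN1 and FEZ of the root cap also lay higher in every mutant library, while SCR, SHR and SMB overlapped. PLT1, PLT2, BRN1 and FEZ had between 4 and 63 reads per library. The sum of 3 leaf photosynthesis markers was 1.60 and 2.06 CPM in wild type, against 8.80, 9.22 and 1.87 CPM in the mutant, so smr1 replicates 1 and 2 stood apart and smr1 replicate 4 lay within the wild-type range. In such bulk samples, fewer cells of a type and less RNA per cell cannot be told apart. The part of these marker differences in the results below was not tested.

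None of the 7 genes passed the edgeR test between the genotypes with adjustment over all 20151 genes tested, against 0.00496% of all genes called. All 7 passed the filter on low counts, with between 1514 and 11230 reads per library. In all 7 the Col-0 and smr1 libraries overlapped. Over all genes tested, 13.7% had all mutant libraries above the wild-type ones and 10.1% had all of them below, together 23.8%. Of the members, 4 had negative and 3 had positive log2 fold changes, where 51.2% of all genes were positive, with a median of -0.01 against 0.01 over all genes tested. AHK3 alone had an unadjusted edgeR p under 0.05, as had 6.85% of all genes. DESeq2 called 0 of the 7 and 0.230% of the genes to which it gave an adjusted p.

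**Figure D1:**
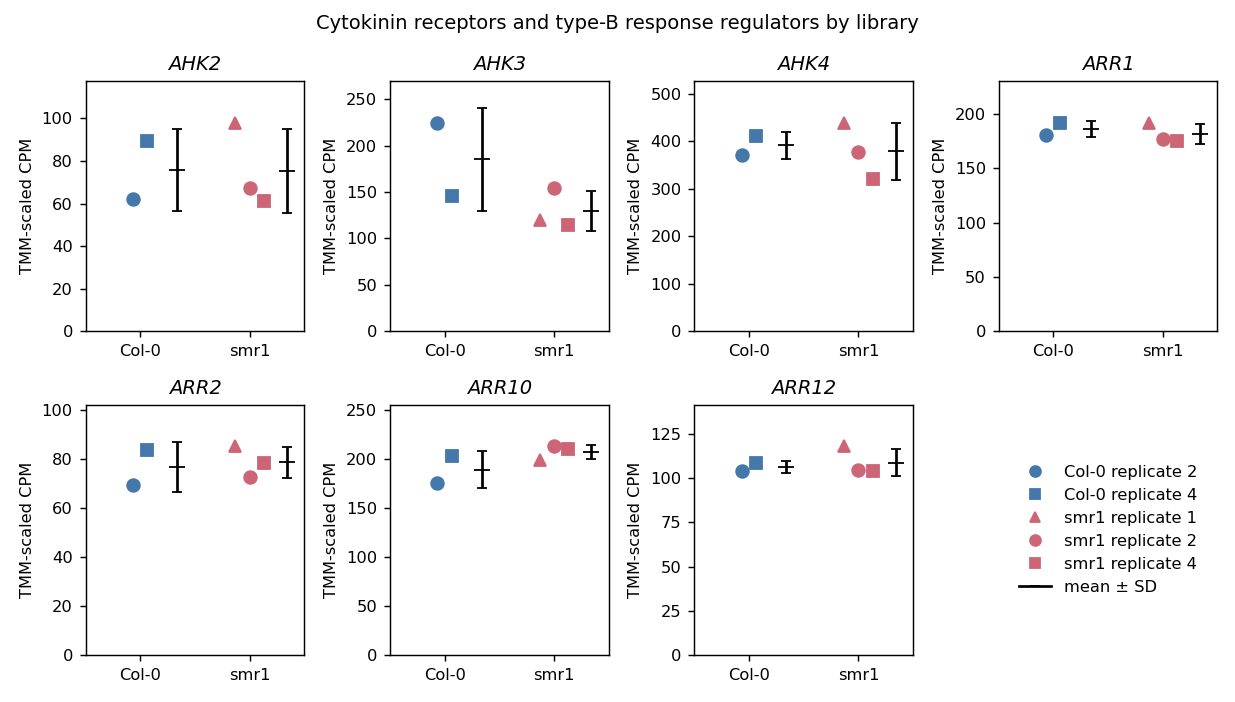
Level of each gene in every library, in TMM-scaled CPM on axes that start at 0, for Col-0 (blue, n = 2) and smr1 (red, n = 3), with the marker shape giving the replicate number and the black bar the mean ± SD. In all 7 genes the points of the groups overlap, and AHK3 in Col-0 replicate 2, at 225 CPM, stands above its other libraries.

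Of the receptors, AHK3 had the largest difference of the 7 members and lay lower in smr1 on average. It was at 225 and 146 CPM in wild type, against 120, 155 and 115 CPM in the mutant. Col-0 replicate 2 was the highest library, while Col-0 replicate 4 lay below smr1 replicate 2, so the groups overlapped. Mean levels were 185 ± 55.8 CPM for wild type (SD, n = 2) and 130 ± 21.8 CPM for the mutant (SD, n = 3). The fitted log2 fold change, -0.52 (SE 0.21), was not called over all genes (edgeR adjusted p = 0.725). Its 95% interval, from -1.03 to -0.01, covers folds from 0.491 to 0.996. The value rested on Col-0 replicate 2. Leaving that library out gave -0.18, and leaving out Col-0 replicate 4 gave -0.80. The 2 Col-0 libraries differed from each other by -0.62 on the log2 scale (replicate 4 relative to replicate 2), more than the genotypes did.

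AHK4, the receptor with the most reads, was at 372 and 411 CPM in wild type, against 439, 377 and 320 CPM in the mutant. The highest and the lowest library were both smr1. The fitted log2 fold change, -0.05 (SE 0.15), was not called (edgeR adjusted p = 0.963), and its 95% interval covers folds from 0.754 to 1.24. Leaving out single libraries moved it between -0.17 and 0.06.

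AHK2, which shares much of its function with AHK3 in shoots and roots, had the widest interval of the 7. It was at 62.2 and 89.5 CPM in wild type, against 98.0, 67.3 and 61.1 CPM in the mutant. Again smr1 held both the highest and the lowest library. The fitted log2 fold change, -0.01 (SE 0.24), was not called (edgeR adjusted p = 0.998), and the 95% interval reaches from 0.664-fold to 1.49-fold. Within each genotype the libraries lay further apart than the fitted difference, by 0.53 between the Col-0 libraries and by 0.68 across the smr1 libraries on the log2 scale.

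The log2 fold changes of the type-B regulators had SEs between 0.10 and 0.13, and those of the receptors between 0.15 and 0.24. ARR1, which acts with ARR12 at the boundary of the root meristem, was at 181 and 192 CPM in wild type, against 192, 177 and 175 CPM in the mutant. All 5 libraries thus lay close together, and its fitted log2 fold change, -0.04 (SE 0.10), was not called (edgeR adjusted p = 0.953). ARR12 was at 104 and 109 CPM in wild type, against 118, 105 and 104 CPM in the mutant. Only smr1 replicate 1 stood above the others, and the fitted log2 fold change, 0.03 (SE 0.10), was not called (edgeR adjusted p = 0.961). The 95% intervals cover folds from 0.828 to 1.15 for ARR1 and from 0.861 to 1.22 for ARR12.

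ARR10, which overlaps in function with ARR1 and ARR12, had the largest difference among the type-B members. It was at 176 and 203 CPM in wild type, against 199, 213 and 210 CPM in the mutant. Col-0 replicate 2 was the lowest library, and smr1 replicate 1 lay below Col-0 replicate 4. The fitted log2 fold change, 0.13 (SE 0.11), was not called (edgeR adjusted p = 0.821), and its 95% interval covers folds from 0.918 to 1.31. It was 0.02 without Col-0 replicate 2, and leaving out Col-0 replicate 4 gave 0.23.

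ARR2, a type-B regulator that activates FZR2 (CCS52A1), an activator of the anaphase-promoting complex that promotes endoreplication, was at 69.3 and 83.7 CPM in wild type, against 85.0, 72.4 and 78.3 CPM in the mutant. The smr1 libraries lay within or just above the span of the Col-0 libraries. The fitted log2 fold change, 0.04 (SE 0.13), was not called (edgeR adjusted p = 0.965), and the 95% interval covers folds from 0.831 to 1.27.

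**Figure D2:**
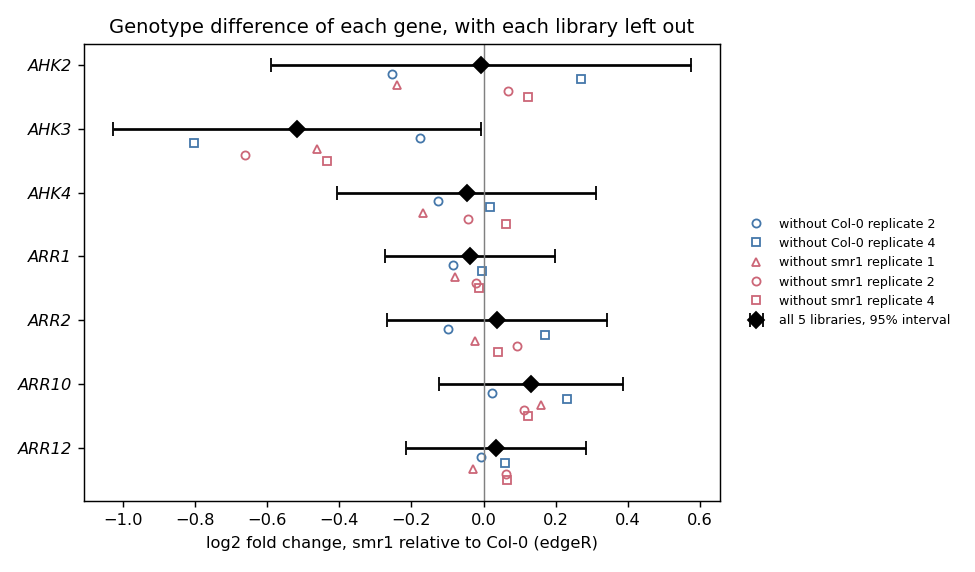
log2 fold change of smr1 relative to Col-0 from edgeR for each gene with all 5 libraries (black, bar = 95% interval) and with each library left out (open symbols, blue for a Col-0 and red for a smr1 library). AHK3 runs from -0.80 to -0.18 and stays below 0, while AHK2 runs from -0.25 to 0.27 and crosses it.

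Library by library, the members did not order the libraries by genotype. Within smr1, replicate 1 was the highest of all libraries for 5 members (AHK2, AHK4, ARR1, ARR2 and ARR12) and replicate 4 the lowest for 4 (AHK2, AHK3, AHK4 and ARR1). Col-0 replicate 2 was the highest for AHK3 and the lowest for ARR2, ARR10 and ARR12. Col-0 replicate 4 was neither the highest nor the lowest library for any member.

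By level per length, in the authors' deposited TPM (a transcript abundance per length, with an equal total in each library), ARR10 and AHK4 led. ARR10 had 80.6 ± 9.71 TPM in wild type (SD, n = 2) and 92.3 ± 2.57 TPM in the mutant (SD, n = 3), and AHK4 had 81.1 ± 7.33 and 82.5 ± 14.1 TPM. ARR10 was above AHK4 in 3 of 5 libraries, so these did not differ in level beyond their spread. ARR1 followed with 62.5 ± 3.69 and 63.8 ± 4.06 TPM, below AHK4 in 5 of 5 libraries and with ranges that did not overlap. ARR12 had 41.6 ± 2.13 and 44.6 ± 3.85 TPM, below ARR1 in 5 of 5 libraries. AHK3 had 39.7 ± 11.3 and 29.2 ± 5.02 TPM and ARR2 had 26.6 ± 4.02 and 28.6 ± 2.54 TPM. The range of AHK3 overlapped that of ARR12 and that of ARR2, and AHK3 exceeded ARR2 in 3 of 5 libraries. AHK2 was the lowest, with 14.3 ± 3.90 and 14.9 ± 4.10 TPM, below ARR2 in 5 of 5 libraries. By mean TPM, ARR10 stood above 90.2% and AHK2 above 63.6% of the loci tested.

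**Figure D3:**
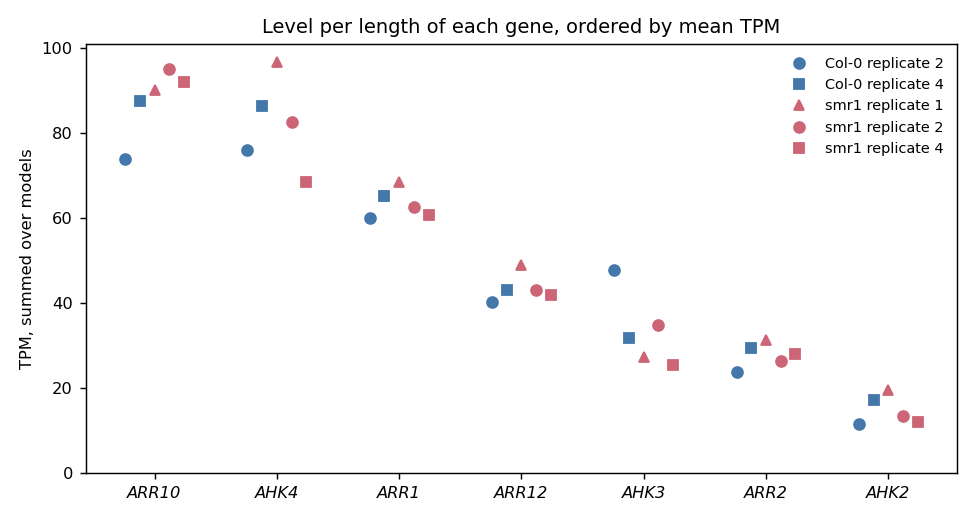
TPM of each gene, summed over its transcript models, in every library (blue Col-0, red smr1, shape by replicate number), ordered by the mean of the 5 libraries on a linear axis from 0. ARR10 lies between 73.7 and 95.03 TPM and AHK2 between 11.5 and 19.6 TPM, and the ranges of ARR12, AHK3 and ARR2 run into each other in that order.

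AHK4 made up most of the receptor transcripts per length in both genotypes. Its share of the summed TPM of the 3 receptors was 56.2% and 63.9% in wild type, against 67.3%, 63.1% and 64.8% in the mutant. AHK3 took 35.3% and 23.5% in Col-0 and 19.0%, 26.7% and 24.0% in smr1, and AHK2 took between 8.54% and 13.6% over all libraries. For each receptor the groups overlapped, and Col-0 replicate 2 held both the largest AHK3 share and the smallest AHK4 share. AHK4 exceeded AHK2 by between 4.94-fold and 6.58-fold and AHK3 by between 1.59-fold and 3.54-fold.

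Among the 11 type-B loci listed, the 4 members made up between 97.8% and 98.7% of the summed TPM. ARR10 took between 36.5% and 41.2% of it, ARR12 between 18.6% and 20.2% and ARR2 between 11.4% and 12.9%, with overlapping groups. The share of ARR1 was 29.7% and 28.5% in wild type, against 28.2%, 27.1% and 26.9% in the mutant. Here every smr1 library lay just below both Col-0 libraries. The shares were not tested, and with 2 against 3 libraries an exact permutation test cannot go below a p of 0.1.

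The starts of the AHK4 models are shown in the printed sequence. The estimated split between model 2 (upstream start) and models 1 and 3 (downstream start) was nearly even in a single library. It favoured model 2 in the others. The coding sequence of models 1 and 3 lies wholly within that of model 2. The split thus rests on reads that reach the 69 further bases of model 2, and the sources used here give no error for it. Model 2 was estimated at 69.8% and 67.9% of the AHK4 TPM in wild type, against 69.9%, 48.7% and 64.4% in the mutant. Only smr1 replicate 2 stood apart, and the groups overlapped (exact permutation test over 10 splits, two-sided, p = 0.7). This test, used for ARR1 below as well, cannot go below a p of 0.1. Models 1 and 3 match the same RefSeq coding sequence by length, so reads within it cannot separate them. They received nearly equal shares in every library, 25.7% each in smr1 replicate 2.

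In ARR1, model 2, with the spliced last exon, was estimated at 72.7% and 73.1% of the ARR1 TPM in wild type, against 74.9%, 74.6% and 64.1% in the mutant. Here smr1 replicate 4 was the low library, a different one from AHK4, and the groups overlapped (exact permutation test, two-sided, p = 1). In its letters the coding sequence of model 1 holds no bases that model 2 lacks and differs from it by the junction alone. At this site, nuclear RNA not yet spliced has the same letters as model 1 up to its stop, so the split cannot tell these apart. The sources used here give no error for the estimated split.

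**Figure D4:**
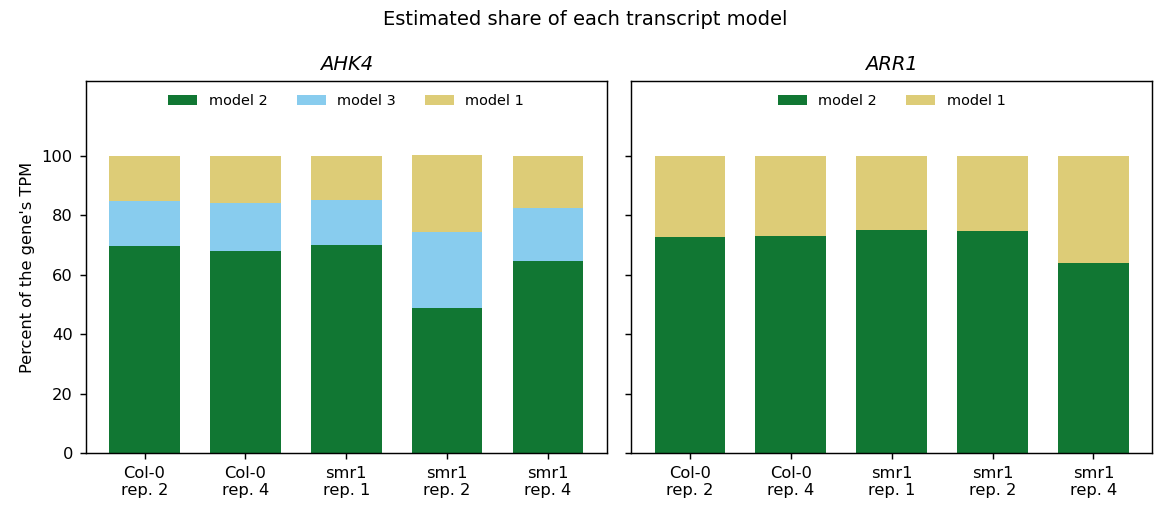
Estimated share of each transcript model in the TPM of AHK4 and ARR1, in percent, as stacked bars for each library. AHK4 model 2 (green) is at 48.7% in smr1 replicate 2 against 64.4% to 69.9% in the other libraries, and ARR1 model 2 is at 64.1% in smr1 replicate 4.

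The genes around these receptors and regulators in the pathway were also without a call. Of 67 other listed cytokinin genes, 43 passed the filter, and edgeR called 0 of them higher and 0 lower over all genes, with 2 at an unadjusted p under 0.05, and DESeq2 called 0. Groups did not overlap in 4 of the 43, which is 9.30%, against the 23.8% of all genes. The median of the 43 was -0.05 on the log2 scale. Of them, 28 took either sign when single libraries were left out. Some genes had too few reads for some of these fits, among them ARR7 with 3 values and ARR15 with 4. These were not among the 28. Among the 24 that did not pass, 5 had 0 reads in every library, which allows up to 3 reads, or between 0.110 and 0.123 CPM by library: ARR19, ARR20, ARR22, ARR24 and IPT4.

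Upstream of the type-B regulators, 4 of 6 AHPs were tested, with a median log2 fold change of -0.19. AHP2, a phosphotransfer protein that relays the signal to the nucleus, was at 72.5 and 82.7 CPM in wild type, against 71.1, 67.1 and 54.9 CPM in the mutant. Every smr1 library thus lay below both Col-0 libraries, at a log2 fold change of -0.27 (SE 0.14) (edgeR adjusted p = 0.733). AHP1 had -0.36 (SE 0.37) and was at -0.68 when Col-0 replicate 2 was left out and at 0.03 when Col-0 replicate 4 was. Of the histidine kinases outside the receptors, CKI1 had a log2 fold change of -0.54 and AHK5 of 0.01, with SEs of 0.33 and 0.11. CKI1 was at -0.93 without Col-0 replicate 2 and at -0.02 without Col-0 replicate 4. The other type-B genes tested, ARR11, ARR14 and ARR18, had between 10 and 241 reads per library and log2 fold changes between -0.37 and -0.27.

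The F-box proteins KMD1 to KMD4 target type-B regulators for degradation, and all 4 had negative log2 fold changes with all libraries, with a median of -0.33. Without Col-0 replicate 2, 3 of the 4 turned positive (KMD1 at 0.62, KMD2 at 0.08 and KMD3 at 1.03) and the median was 0.35. KMD4 was at 92.0 and 69.8 CPM in wild type, against 48.9, 57.8 and 44.6 CPM in the mutant. It had the smallest p of the listed pathway genes and groups that did not overlap, at a log2 fold change of -0.68 (SE 0.16), and it did not pass over all genes (edgeR adjusted p = 0.725, DESeq2 adjusted p = 0.157). With any one library left out it was between -0.88 and -0.48. KMD2, the most abundant of them, had -0.22 (SE 0.19) with all libraries and -0.48 without Col-0 replicate 4.

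Downstream, the type-A regulators had a median log2 fold change of 0.05 over 9 tested genes, 6 of them positive. Without Col-0 replicate 2, 3 were positive, and without Col-0 replicate 4, all 9 were. ARR7 was at 1 and 5 reads in wild type, against 13, 6 and 18 reads in the mutant. These counts do not overlap, but Col-0 replicate 4 and smr1 replicate 2 differ by a single read, and the log2 fold change, 1.95 (SE 0.78), was not called (edgeR adjusted p = 0.725). ARR15 had 0.81 (SE 0.50), from 9 to 24 reads. Of the genes listed as type-B targets in the root, IAA3 (SHY2), an auxin repressor induced through ARR1, was at 7.43 and 12.6 CPM in wild type, against 12.7, 12.8 and 15.7 CPM in the mutant. Col-0 replicate 4 lay next to the smr1 libraries, and the log2 fold change of 0.45 (SE 0.25, edgeR adjusted p = 0.742) was 0.12 without Col-0 replicate 2. FZR2 had a log2 fold change of 0.08 (SE 0.11).

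Genes of cytokinin supply and turnover were as mixed. For synthesis and activation the median log2 fold change was -0.05 over 9 tested genes, with LOG1, an enzyme that releases the active hormone, at -0.73 (SE 0.44) and IPT5, which starts its synthesis, at -0.26 (SE 0.23). Without Col-0 replicate 2 these were at -0.27 and 0.02, and without Col-0 replicate 4 at -1.10 and -0.52. The cytokinin oxidases, which break the hormone down, had a median of -0.08 over 4 tested genes, with CKX6 at -0.31 (SE 0.27) and CKX5 at 0.26 (SE 0.35). CKX5 was at -0.08 when smr1 replicate 4 was left out, at -0.05 when Col-0 replicate 2 was and at 0.65 when Col-0 replicate 4 was. The cytokinin response factors had a median of 0.15 over 5 tested genes, with CRF4 at -0.76 (SE 0.50) and CRF2 at 0.44 (SE 0.42). Both changed sign with a single Col-0 library left out, CRF4 to 0.36 without replicate 2 and CRF2 to -0.10 without replicate 4. Reads per library ran from 14 to 39 for LOG1, from 17 to 46 for CRF2 and from 33 to 51 for CKX6.

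**Figure D5:**
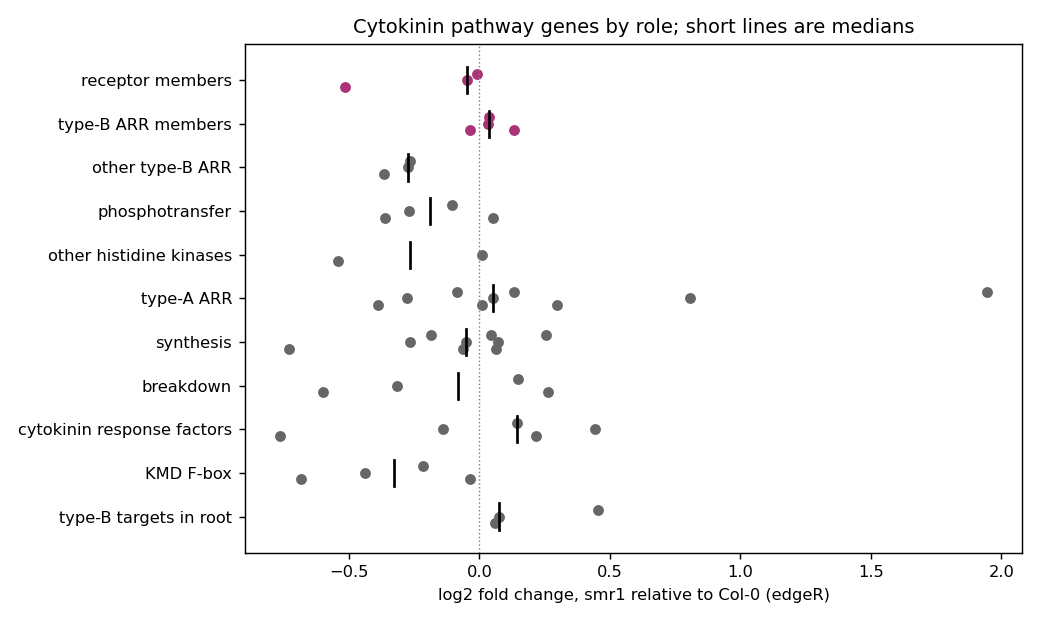
log2 fold change of smr1 relative to Col-0 from edgeR for each tested gene, by role, with the 7 members in purple, the other listed cytokinin genes in grey and short lines at the medians. The type-B members lie between -0.04 and 0.13, and the point furthest right is ARR7 at 1.95, with 1 to 18 reads per library.

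The gene most like each member was sought over the 5 libraries as the smallest mean absolute difference of log2 CPM, each gene centred on its own mean. For ARR2 it was MP (ARF5), an auxin response factor of vascular development, at 0.0164. For the other members it was a gene whose symbol here is only its locus number, at between 0.00791 (ARR1) and 0.0216 (AHK3). ARR1 and ARR12 were each other's nearest among the members, at 0.0335, while AHK3 was at least 0.294 from every other member. By the same measure, 2493 genes lay within 0.1 of ARR2, so MP was one of many, 4272 within 0.1 of ARR1 and 193 within 0.1 of AHK3.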

How the data were processed

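The deposited tables give expected counts, which need not be whole, and TPM values for each of 41671 transcript models, per the file headers. The submitters' processing notes name CASAVA, Salmon 0.7.2 and TAIR10 but give none a role. The strand setting used for counting is unknown, and 93.36% of the models have a length divisible by 3, so lengths here are coding lengths and reads from untranslated regions would not be counted for them.

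Expected counts were summed per locus and rounded. Loci past the edgeR expression filter (minimum count 10, minimum total 15) entered robust quasi-likelihood F tests of smr1 against Col-0 (edgeR 4.0.16, R 4.3.3, TMM factors, 3 residual degrees of freedom) with Benjamini-Hochberg adjustment at 0.05 over all genes. SEs and 95% intervals of log2 fold changes (smr1 relative to Col-0) come from the F statistic, and tests were two-sided. Deposited TPM served only for levels and shares. Alternatives were DESeq2 1.42.0, limma 3.58.1 (voom), other size factors, no filter, no robust shrinkage, a replicate block and each library left out.

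The 7 members and the pathway lists were chosen with earlier results of these data known. Named besides the members were SMR1, up to 2 genes per list with the smallest p and the gene most like a member. Genes at 0 reads, ARR14, KMD1, KMD3 and single marker genes were named after their values were seen. All 96 listed loci matched a RefSeq symbol or synonym.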

Additional observations from a re-analysis of the deposited data

How the results depend on the processing

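No alternative called any of the 7 members or of the other listed cytokinin genes. Over all genes, where edgeR called 1, DESeq2 called 41, edgeR without a filter 3, with the replicate block 2, and limma voom 0 (at an unadjusted p under 0.05 it had 773 higher and 563 lower). Without any one library edgeR called 0. Adjusted p of the members lay between 0.341 and 1.00 over the 77 values from 11 alternatives, and the direction was kept in 66 and reversed in 11. With single libraries left out, log2 fold changes ran from -0.25 to 0.27 for AHK2, -0.17 to 0.061 for AHK4, -0.10 to 0.17 for ARR2 and -0.028 to 0.066 for ARR12, so these took either sign; the cause was not tested. AHK3, ARR1 and ARR10 kept their sign in every alternative. Where a genotype was left with 1 library, that library was taken to vary like the others.

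Groups shared the replicate numbers 2 and 4, which pair no samples by the labels. Deviations from the group means, across genes, correlated at 0.397 for number 2 and 0.185 for number 4. Col-0 replicate 4 and smr1 replicate 1, which share no number, correlated at 0.171. With 2 Col-0 libraries, the deviations of each mirror those of the other, and those within smr1 cancel out. These values therefore depend on each other and cannot decide whether the numbers pair the samples. With the replicate block, ARR2 was at -0.018 and ARR12 at -0.028, and AHK3 at -0.44 (edgeR adjusted p = 0.341). Number 1 occurs in smr1 only, so with the block smr1 replicate 1 adds nothing to the fitted genotype difference. The order of the members by level was the same with reads per kb and TMM factors. The ARR1 model 2 share in Col-0 was 73.6% by expected counts against 72.9% by TPM. At this number of libraries the members' 95% intervals reach from 0.491-fold for AHK3 to 1.49-fold for AHK2, with at least 1514 reads per member and library.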
